A study of Mus musculus with 2 samples.

Results

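The genes described here encode the vacuolar proton pump (V-ATPase) and the exchangers that carry protons or bicarbonate across membranes, read in lungs that held Lewis lung carcinoma (LLC) cells with or without extra TDAG8. Members were the probe sets with a single annotated gene whose symbol begins with Atp6v or Atp6ap, or is Slc9a or Slc4a followed by a number and nothing else. That rule gave 83 probe sets for 38 genes, out of 34945 single-gene probe sets for 18193 genes on the array. The 38 genes were 8 of the V0 sector, 12 of the V1 sector, 2 accessory subunits, 7 sodium-proton exchangers of the Slc9a family and 9 transporters of the Slc4a family, most of which carry bicarbonate. Among other genes of these families, Atp6v0c, Atp6v1g3, Atp6ap1l, Slc9a10, Slc9a11 and Slc4a7 were not analysed here.

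The lungs came from C57BL/6 mice, 6 to 8 weeks old when 500000 LLC cells in 200 µL were given by tail vein, and were taken on day 19. In the vector control group the LLC cells carried an empty vector, and in the TDAG8 group they overexpressed TDAG8, the acid-sensing receptor encoded by Gpr65. Every mouse of both groups had been given tumour cells, so there was no lung without them, and the sources used here do not give the promoter that drove TDAG8 or say whether the line was clonal. RNA of 10 lungs was pooled for each group and each pool was read on 1 Affymetrix array. With 1 array per group no test, p-value or error could be computed, groups had no spread that could overlap, and each difference describes these 2 pools. Fewer cells of a type and less RNA per cell cannot be told apart in RNA of whole lung. Tumour and host transcripts of the same mouse gene are also read together. The number of arrays limits the precision of every value.

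The V-ATPase acidifies lysosomes, endosomes and secretory vesicles and, in some cells, pumps protons out through the plasma membrane. Its cytosolic V1 sector hydrolyses ATP and turns a rotor, and its membrane-embedded V0 sector carries the protons. Several subunits exist as isoforms from separate genes, some made in most tissues and others mainly in cells such as kidney intercalated cells, osteoclasts or neurons. Slc9a exchangers swap a sodium or potassium ion for a proton, and most Slc4a transporters exchange chloride for bicarbonate or carry sodium with bicarbonate. In lung, acid transport serves lysosomes of macrophages, lamellar bodies of alveolar type 2 cells and the liquid that lines the airways.

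Factors of the MiT family (Tfeb, Tfe3, Mitf, Tfec) drive lysosome and pump genes through an element with the core CACGTG, whose extended form is called CLEAR. Promoters were taken from RefSeq (GRCm38.p6, 250 bases before to 50 after each gene's start), where 27 of the 38 genes had 31 promoters. Both motifs read the same on both strands. CACGTG lay in 4 of 17 promoters of pump genes (23.5%), those of Atp6v0b, Atp6v0d1, Atp6v0e and Atp6v1a, and in 1 of 14 of exchanger genes (7.14%), that of Slc9a3. Of all 32851 promoters of this length, 7.15% held it. CLEAR, the core with GT before it and AC after it, was searched with at most 1 mismatch and lay in 1 promoter of a pump gene, that of Atp6v0d1, and in 1.84% of all promoters. No member promoter held it exactly, and 0.326% of all promoters did. Any CLEAR match with an intact centre also contains CACGTG, so the counts of the 2 motifs overlap. The first 2 promoters below belong to broadly expressed V0 genes that hold the motif, and the other 2 to the pump gene and the bicarbonate transporter gene with the lowest ratios of their kind among genes above the floor on both arrays. Capitals mark CACGTG and the CLEAR matches with at most 1 mismatch.
Atp6v0b (chr4:117887280-117887579, minus strand): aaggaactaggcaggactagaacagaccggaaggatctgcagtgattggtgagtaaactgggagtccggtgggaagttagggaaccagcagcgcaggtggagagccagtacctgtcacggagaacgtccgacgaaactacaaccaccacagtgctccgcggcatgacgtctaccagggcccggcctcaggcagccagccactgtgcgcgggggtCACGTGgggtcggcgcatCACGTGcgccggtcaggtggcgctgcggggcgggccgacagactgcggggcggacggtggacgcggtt
Atp6v0d1 (chr8:105566015-105566314, minus strand): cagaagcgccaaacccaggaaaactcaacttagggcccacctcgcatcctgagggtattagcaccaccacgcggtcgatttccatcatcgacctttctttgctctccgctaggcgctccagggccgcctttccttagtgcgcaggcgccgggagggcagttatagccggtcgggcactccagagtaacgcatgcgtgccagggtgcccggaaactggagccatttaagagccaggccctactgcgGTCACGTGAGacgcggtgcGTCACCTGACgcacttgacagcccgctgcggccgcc
Atp6v0a1 (chr11:101010148-101010447, plus strand): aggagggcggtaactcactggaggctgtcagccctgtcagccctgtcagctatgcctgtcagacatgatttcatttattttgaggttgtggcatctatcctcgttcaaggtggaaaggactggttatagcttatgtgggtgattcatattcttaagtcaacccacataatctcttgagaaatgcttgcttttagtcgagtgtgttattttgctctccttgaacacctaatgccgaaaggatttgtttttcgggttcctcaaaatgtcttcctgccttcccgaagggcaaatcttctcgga
Slc4a5 (chr6:83237125-83237424, plus strand): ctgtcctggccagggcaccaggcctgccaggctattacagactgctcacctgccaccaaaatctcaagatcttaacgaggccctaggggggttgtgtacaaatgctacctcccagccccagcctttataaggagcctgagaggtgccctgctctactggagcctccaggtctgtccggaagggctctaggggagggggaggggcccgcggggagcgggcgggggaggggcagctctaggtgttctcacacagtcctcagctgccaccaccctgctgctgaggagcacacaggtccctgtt
In Atp6v0b the 2 copies of CACGTG begin 36 and 18 bases before the annotated start, and in Atp6v0d1 the single copy begins 3 bases before it. The Atp6v0d1 promoter holds 2 CLEAR matches with 1 mismatch each, only the first of which contains CACGTG. The promoters of Atp6v0a1 and Slc4a5 hold neither motif in this window. The log2 ratios of TDAG8 over vector control were 0.06 for Atp6v0b, 0.10 for Atp6v0e, -0.09 for Atp6v1a and -0.28 for Atp6v0d1. A motif match describes these letters and is not evidence of binding.

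Intensities are printed as deposited. Each array's 50th percentile served as its floor, which was 26.3 for the control and 24.3 for TDAG8, and a value below it was raised to it before a ratio was taken. Ratios were centred on the median of all genes above the floor on both arrays, which moved each by 0.06 on the log2 scale. Of the 38 genes, 30 passed the floor somewhere and 27 of them on both arrays. None of these 30 differed by 2-fold, whereas 6.59% of all genes measured did, and 5.41% of the 11949 genes measured were at least 2-fold higher in the TDAG8 array and 1.19% at least 2-fold lower. A count of 0 in 30 is close to that background, and nothing is read from it. At a 1.5-fold limit, chosen after the values were seen, 1 member was higher and 3 were lower, beside 14.4% and 12.1% of all genes. The median log2 ratio was -0.09 over the 30 genes and 0.00 over all genes measured. Gpr65 itself went from 32.3 to 73.9, 2.38-fold, read by a single dim probe set.

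**Figure D1:**
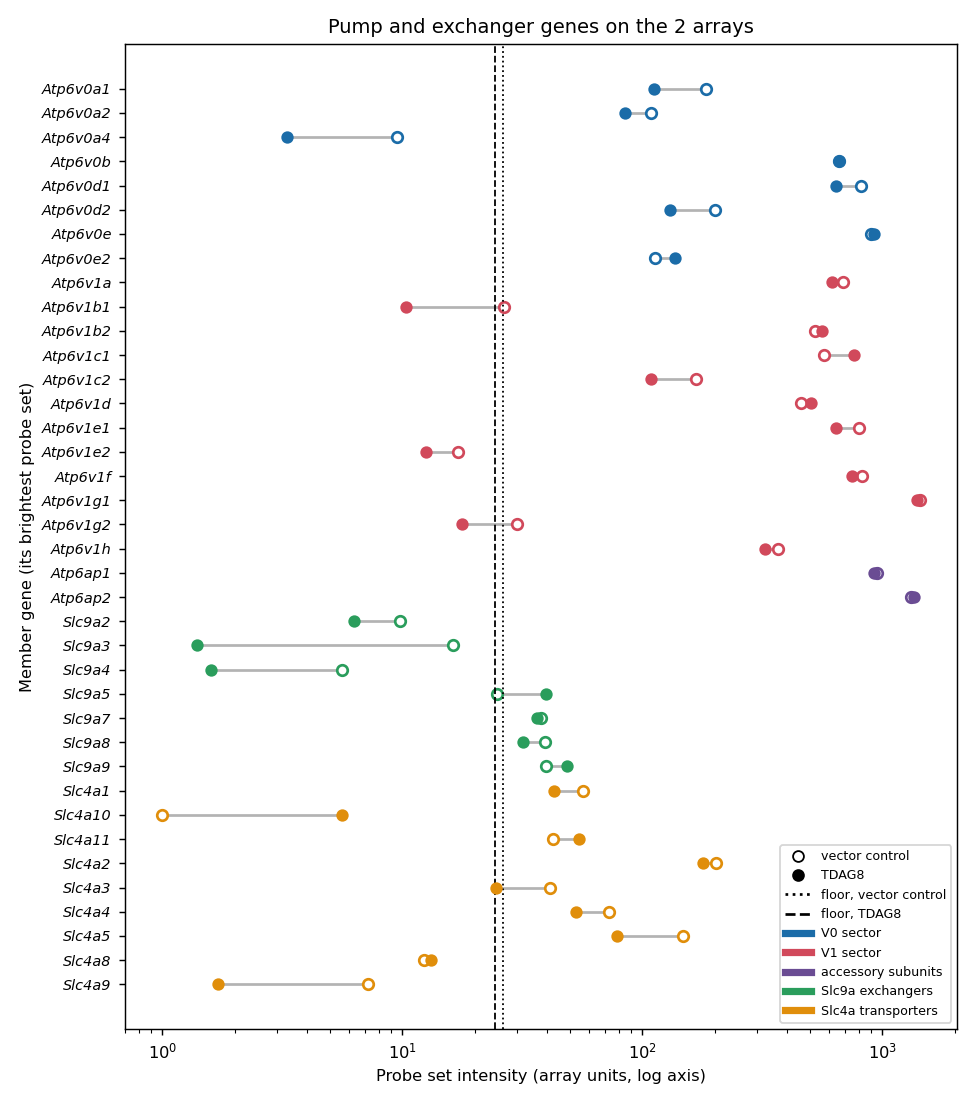
Intensity of the brightest probe set of each of the 38 member genes (array units, log axis) on the vector control array (open circles) and the TDAG8 array (filled circles), coloured by group, with the floors of 26.3 and 24.3 as dotted and dashed lines. Broadly expressed pump genes lie to the right of the floors, most with circles close together but Atp6v0a1 and Atp6v1c1 further apart, and most exchangers lie close to or left of them.

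The membrane sector was read by 8 genes, and the Atp6v0a genes, which encode the subunit that forms the proton path and sets where a pump goes in the cell, were lower in the TDAG8 array by their brightest probe sets where these passed the floor. Atp6v0a1, the a1 isoform that is abundant in neurons but broadly made, went from 185 to 112, a log2 ratio of -0.66 or 1.58-fold lower. Its other 2 probe sets above the floor went from 53.6 to 32.2 and from 52.7 to 40.6, so all 3 were lower, with log2 ratios from -0.68 to -0.32. Atp6v0a2, the a2 isoform of the Golgi and endosomes, went from 109 to 84.4, a log2 ratio of -0.31. Its other probe sets were at -0.17 and 0.02 on the same scale, so its difference was not shared by all 3. Atp6v0a4, the isoform of kidney intercalated cells and the inner ear, lay below the floor on both arrays at 9.5 and 3.3.

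Subunit d links the rotor to V1. Atp6v0d1, the broadly made form, went from 812 to 641, a log2 ratio of -0.28. Atp6v0d2, known from osteoclasts, kidney and macrophages, went from 202 to 130, a log2 ratio of -0.58 or 1.49-fold lower. Its other probe set went from 143 to 97.7 with a log2 ratio of -0.50, so both probe sets were lower by similar amounts. Atp6v0b, a proteolipid of the rotor ring, was nearly level at 658 and 660. Its 3 probe sets, all of a kind that can share sequence with other transcripts, had log2 ratios from -0.11 to 0.06. Atp6v0e, a small membrane subunit, went from 898 to 927, and its relative Atp6v0e2, found mainly in brain and kidney, from 113 to 137, with log2 ratios of 0.10 and 0.34. Over the 7 measured V0 genes the median log2 ratio was -0.28, with 3 above 0 and 4 below.

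The cytosolic sector was read by 12 genes, and most of its broadly made subunits had similar levels on both arrays. The catalytic subunit gene Atp6v1a went from 682 to 618, and its other probe set from 605 to 552, with log2 ratios of -0.09 and -0.07. Its partner in the ATP-hydrolysing head, Atp6v1b2, went from 525 to 560, a log2 ratio of 0.15. Its other probe set above the floor was at 0.16, so the probe sets of each head subunit differed from each other by very little. Atp6v1d, of the central stalk, went from 459 to 504, with log2 ratios from 0.16 to 0.22 over 3 probe sets. Atp6v1f, also of the central stalk, went from 825 to 746, and Atp6v1h, a regulator of ATP hydrolysis, from 369 to 326, with log2 ratios of -0.09 and -0.12. Atp6v1g1, of the outer stalks, was the brightest V1 gene at 1430 and 1401, a log2 ratio of 0.03.

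Subunit C, which holds the outer stalks to the head and is released when the pump comes apart, had isoforms that differed in opposite directions. Atp6v1c1, the broadly made form, went from 571 to 759, a log2 ratio of 0.47 or 1.39-fold higher. Its other 2 probe sets went from 289 to 440 and from 210 to 298, with log2 ratios of 0.67 and 0.56, so all 3 were higher. Atp6v1c2, an isoform of lung, kidney and epididymis, went from 167 to 109, a log2 ratio of -0.56 or 1.48-fold lower, read by 1 probe set. The log2 ratio of Atp6v1c1 exceeded that of Atp6v1c2 by 1.03, equal to a 2.05-fold change of the first relative to the second. As ratios of the TDAG8 array to the control array they show unequal change and not which isoform was more abundant. The same gap, broadly made form minus the other, was 0.29 for subunit d, -0.23 for e, 0.21 for B and 0.27 for G. Those of B and G rest on a value raised to the floor. Log2 ratios of all genes above the floor on both arrays had an SD of 0.55, and neither subunit C gene was 2-fold different.

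Subunit E was the case where probe sets of a member gene disagreed most. The bright probe set of Atp6v1e1, an outer stalk gene, went from 799 to 641 with a log2 ratio of -0.26, and a dim probe set of the same gene went from 47.3 to 74.6 with a log2 ratio of 0.72. The bright probe set is of a kind that can share sequence with other transcripts, so no direction is given for this gene. The remaining V1 isoforms were dim. Atp6v1b1, the form of kidney intercalated cells, was at 26.4 in the control, just above the floor, and at 10.4, below it, in the TDAG8 array. Its ratio is therefore set by the floor, and with the floor at the 30th percentile its log2 ratio was -1.27, the lowest of all members. Atp6v1g2, a neuronal form, was at 29.9 and 17.7 and was at least 1.18-fold lower, with a log2 ratio of -0.68 under that lower floor. The testis form Atp6v1e2 was under both floors at 17.0 and 12.6. Over the 11 measured V1 genes the median log2 ratio was -0.09, with 4 above 0 and 7 below, where Atp6v1e1 counts as below by its bright probe set only.

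Both accessory subunit genes had near-equal levels on the arrays. Atp6ap1, which guides assembly and sorting of the pump, went from 954 to 921, a log2 ratio of 0.01 after centring and -0.05 without it. Its only probe set is of a kind that can share sequence. Atp6ap2, the prorenin receptor, went from 1323 to 1350, with log2 ratios from 0.07 to 0.20 over 3 probe sets.

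**Figure D2:**
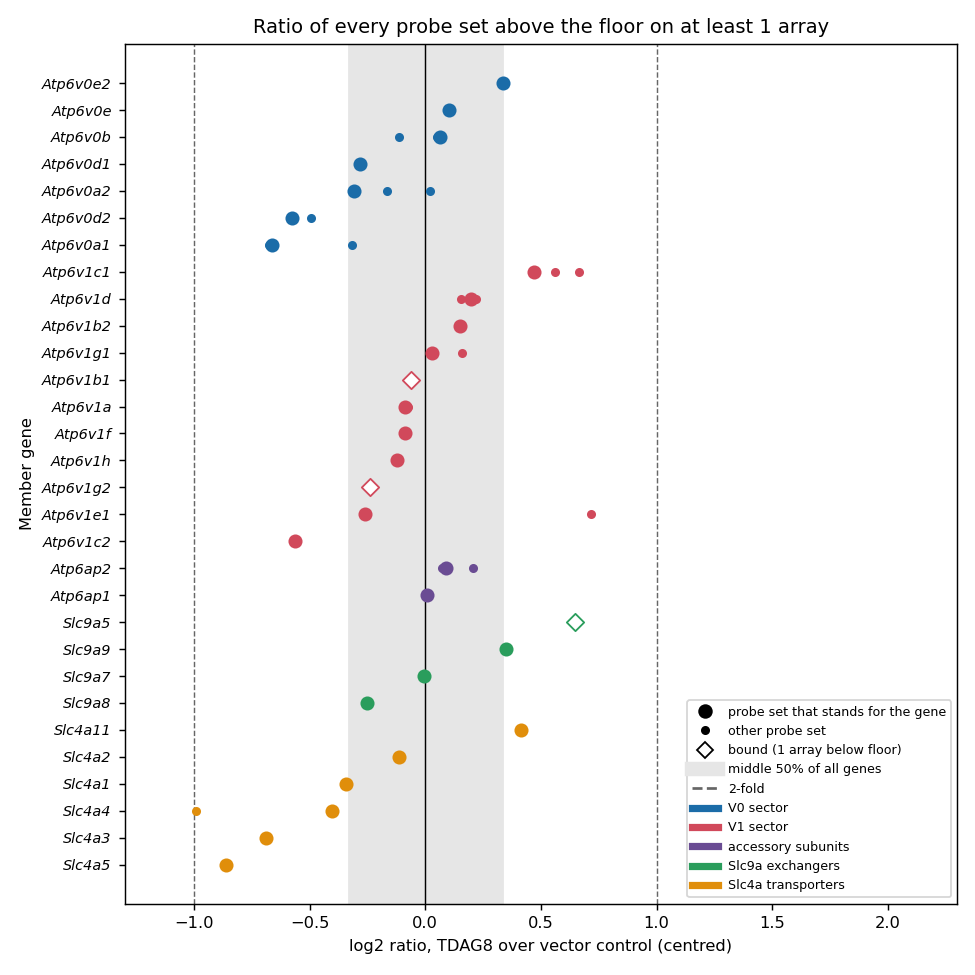
Centred log2 ratio of TDAG8 over vector control for each member probe set above the floor on at least 1 array, with large points for the probe set that stands for the gene, small points for its others, diamonds for bounds, and the middle 50% of all genes shaded (-0.33 to 0.34). The 3 points of Atp6v1c1 lie between 0.47 and 0.67, the 2 points of Atp6v0d2 between -0.58 and -0.50, and the 2 points of Atp6v1e1 on opposite sides of 0.

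Split by breadth of expression, the 15 broadly made pump genes had a median log2 ratio of 0.01 (-0.05 to 0.03 over the processing alternatives), and their median size of difference, whatever its direction, was 0.12. Across the 11044 genes that passed the floor on both arrays that size was 0.33, and over the 4688 of these with a mean intensity of at least 200 it was 0.32. Summed over the 15 genes, the intensity went from 10598 to 10248. The tissue-restricted pump isoforms with a probe set numbered 7, of which Atp6v0a4 and Atp6v1e2 gave no ratio. The other 5 had a median log2 ratio of -0.24, with Atp6v0e2 as the single one above 0, and that median ran from -0.58 to -0.08 over the processing alternatives. The median became -0.56 over the 3 above the floor on both arrays, which were Atp6v0d2, Atp6v1c2 and Atp6v0e2. Which isoforms count as restricted was taken from general knowledge, and the number of genes is too small to set the classes apart.

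Several pump isoform genes have known cellular homes, and genes that mark those cells also differed between the arrays. Of the monocyte and macrophage markers 11 had a probe set, all 11 were higher in the TDAG8 array, and their summed intensity went from 3364 to 6428. Of the alveolar macrophage markers 7 of 8 were lower, but Marco was higher, from 61.5 to 127.5, a log2 ratio of 1.11. The sum of the 8 went from 5715 to 3541, of which Chil3 went from 3662 to 2148. Osteoclast markers were near level, with a sum of 502 and 534, and Dcstamp, Ocstamp, Calcr and Oscar below the floor on both arrays. All 7 alveolar type 2 markers, 8 alveolar type 1 markers, 10 airway markers and 10 endothelial markers were lower, with sums that went from 32455 to 24029, from 17256 to 11445, from 28300 to 20720 and from 7538 to 4418. The 7 dividing-cell markers were all higher, from 669 to 3352 in sum. None of these markers was at an intensity of 0. The part of such cell types in the pump and exchanger differences was not tested. Of the 6 markers of ionocytes and intercalated cells, Foxi1, Ascl3, Kcnma1 and Aqp6 lay below the floor on both arrays, as did Atp6v0a4. The other 2 were lower, Kit from 481 to 238 and Cftr from 38.7 to 21.3, under the floor. The sum of the 6 went from 562 to 285, but most of it was Kit, so it is not read as a level of these cells. Of the 6 neuron and neuroendocrine markers read, Snap25, Syt1, Chga and Tubb3 lay below it too. The other 2 were lower, Stmn2 from 284 to 154 and Uchl1 from 34.1 to 30.5, and the sum of the 6 went from 352 to 227.

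The proton exchangers of the Slc9a family were dim in these lungs, and 3 of 7 lay above the floor on both arrays. Slc9a7, of the trans-Golgi network, was level at 38.0 and 36.4, a log2 ratio of 0.00. Slc9a8, of Golgi and endosome membranes, went from 39.4 to 31.8, a log2 ratio of -0.25, and the endosomal Slc9a9 from 39.8 to 48.6, a log2 ratio of 0.35. Their other probe sets were under the floor throughout. Slc9a5, a plasma membrane exchanger known mainly from brain, went from 24.7, below the floor, to 39.5 and was at least 1.56-fold higher. It was the one member past 1.5-fold in that direction, but under 3 of the 8 alternatives it was below the floor on both arrays (65th percentile), at 0.39 (offset) and at 0.31 (mean over probe sets), each short of 1.5-fold. Slc9a2, Slc9a3 and Slc9a4, the exchangers of gut, kidney and stomach epithelium, lay below the floor on both arrays, with intensities from 1.4 to 16.3. The median of the 4 measured genes was 0.17 with Slc9a5 at its bound and 0.00 without it.

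Of the 6 measured transporter genes of the Slc4a family 5 were lower in the TDAG8 array, and Slc4a5 had the lowest ratio among members above the floor on both arrays. Slc4a5, a sodium-bicarbonate cotransporter, went from 148 to 78.1, a log2 ratio of -0.86 or 1.82-fold lower, read by 1 probe set. Slc4a4, the cotransporter NBCe1 of kidney and pancreas, went from 72.9 to 52.9 and in its other probe set above the floor from 60.3 to 29.1. Those probe sets had log2 ratios of -0.40 and -0.99, so both were lower but by different amounts. Slc4a3, an anion exchanger of heart and brain, went from 41.3 to 24.6, a log2 ratio of -0.69, and its TDAG8 value lay just above the floor of 24.3.

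The remaining measured Slc4a genes were a pair of anion exchangers, both lower, and Slc4a11, which was higher. Slc4a2, the anion exchanger of most epithelia, was the brightest of the family at 203 and 180, a log2 ratio of -0.12. Slc4a1, the band 3 protein of red cells, went from 56.7 to 42.9, a log2 ratio of -0.34, and its other probe set above the floor was at -0.34 as well. Of the 9 red cell markers with a probe set, 5 (Hba-a1, Epb42, Rhag, Ermap and Klf1) lay below the floor on both arrays. Hba-a1 was read by 1 probe set and Hbb-b1 had none with a single gene, so globin RNA is not judged here. The summed intensity of the 9 went from 1200 to 820, of which Alas2 went from 692 to 368. The 4 markers above the floor were split, with Ank1 above 0 at a log2 ratio of 0.87 and 3 below. The part of red cells in the Slc4a1 difference was not tested. Slc4a11, a transporter of the cornea and inner ear, went from 42.4 to 54.2, a log2 ratio of 0.41. Slc4a8, Slc4a9 and Slc4a10 were under the floor throughout. The 6 measured genes had a median log2 ratio of -0.37, and their family's summed intensity went from 584 to 453. The heart and muscle markers were all lower, 10 of 10, with a sum that went from 7902 to 4949, and their part in the Slc4a3 difference was not tested.

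Genes that work with the pump but carry other symbols were taken from a list of 15, of which 14 had a probe set and 10 were above 0, with a median log2 ratio of 0.25. None was 2-fold different. Tcirg1, the a3 subunit isoform of lysosomes and the osteoclast membrane, went from 139 to 223, a log2 ratio of 0.74 or 1.68-fold higher. It was read by 1 probe set. Its log2 ratio exceeded that of Atp6v0a1 by 1.41, so these subunit a genes differed in opposite directions. The gap to Atp6v0a2 was 1.05 by the brightest probe set of Atp6v0a2, whose other probe sets were at -0.17 and 0.02. Tmem199, an assembly factor, went from 72.9 to 128, a log2 ratio of 0.87. Its only probe set is of a kind that can share sequence. Ccdc115, its binding partner, went from 77.6 to 106, a log2 ratio of 0.50. Tmem199, Tcirg1 and Ccdc115 were the 3 partners with the largest differences.

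The lysosome, which the pump acidifies, showed no common direction. Of 20 measured lysosome genes 12 were above 0 and 8 below, with a median log2 ratio of 0.08. The galactosidase gene Gla went from 48.1 to 93.3, a log2 ratio of 1.01, the single one at 2-fold. Without centring Gla fell short of 2-fold. Another of its probe sets went from 17.0, below the floor, to 31.8 and was at least 1.26-fold higher. Glb1, another galactosidase, was at 0.64, and Grn, the gene of progranulin, went from 1545 to 2291, a log2 ratio of 0.63. The MiT factors differed little, with Tfec at 0.39, Mitf at 0.17, Tfeb at -0.12 and Tfe3 at 0.07 on the log2 scale.

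Partners of the exchangers went both ways, with 7 of 15 above 0 and a median log2 ratio of -0.04. Slc9a3r2, the scaffold NHERF2 that binds exchangers and receptors below the membrane, went from 933 to 571 in its brightest probe set, a log2 ratio of -0.65. Of its other 5 probe sets 4 were between -1.12 and -0.94 and the last, of a kind that can share sequence, went from 299 to 502 with a log2 ratio of 0.81. Its relative Slc9a3r1, which was named after its values were seen, was level, at 587 and 548, a log2 ratio of -0.04. The chloride-proton exchanger gene Clcn5 was at 0.97 in its brightest probe set, from 102 to 192, which is of a kind that can share sequence. In its other probe set above the floor it was at 0.06. Slc26a4, the anion exchanger pendrin, was at 46.5 in the control and 19.5, under the floor, with TDAG8, a difference of at least 1.84-fold.

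**Figure D3:**
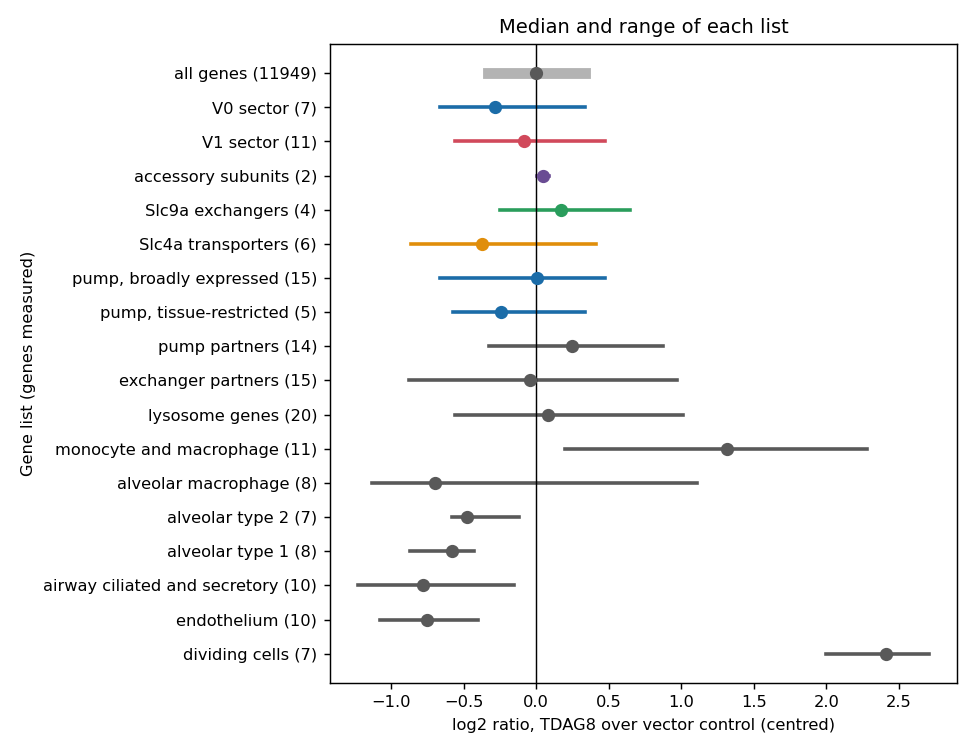
Median (point) and range (line) of the centred log2 ratios in each gene list, with the number of genes measured, and for all genes the median with the middle 50% as a grey bar. The pump sectors and lysosome genes straddle 0, whereas the lists of alveolar type 1 and type 2, airway and endothelial cells lie left of 0 and those of monocytes and macrophages and of dividing cells right of it. The alveolar macrophage list has its median at -0.70 and spans 0.

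The member ratios changed little with the processing for most genes. Of the 30 measured genes 25 kept the sign of their log2 ratio under each of the alternatives that gave a value, out of 8 tried. The 5 that did not were Atp6ap1, Atp6v1b1, Atp6v1e1, Atp6v1g1 and Slc9a7. Over the alternatives the log2 ratio ran from -0.72 to -0.41 for Atp6v0a1, from -0.63 to -0.50 for Atp6v0d2, from -0.62 to -0.47 for Atp6v1c2 and from 0.41 to 0.58 for Atp6v1c1. For Slc4a5 it ran from -0.92 to -0.70 and for Slc4a3 from -0.75 to -0.35. The ends at -0.41 and -0.35 came from the mean over probe sets, which took in a probe set under the floor on both arrays.

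**Figure D4:**
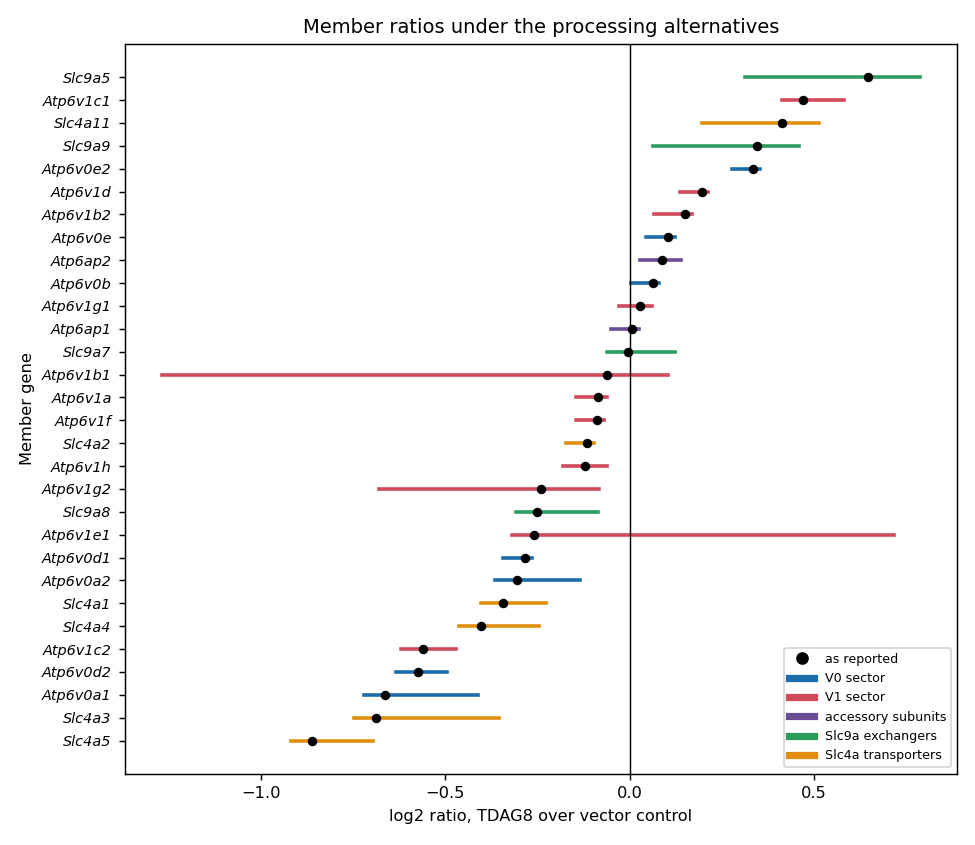
Centred log2 ratio of each measured member gene as reported (black points) and its lowest to highest value over the processing alternatives (coloured lines, by group), with genes ordered by their reported value. The lines of Atp6v1b1 (-1.27 to 0.10) and Atp6v1e1 (-0.32 to 0.72) are the longest and cross 0, and those of Slc4a5, Atp6v0d2 and Atp6v1c2 stay left of it.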

How the data were processed

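Total RNA of whole lungs was pooled from 10 mice per group and 2 µg was labelled with biotin by the Affymetrix procedure, per the labels' protocols. The values deposited by the authors are linear intensity values, 1 per probe set, with a trimmed mean of 100 on each array after 2% was left out at each end. The sources used here name no software, background correction or detection calls for them. Of 45101 probe sets, 64 controls were set aside. The platform annotation gave 34945 a single gene, 932 several and 9160 none, and 34741 of the first were matched to the RefSeq table (GRCm38.p6) for symbols. The files name no genome build, so no coordinates are given for genes or probe sets. The coordinates printed are those of the RefSeq promoter windows.

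A gene with several probe sets was represented by the brightest, judged by its mean log2 intensity. Ratios were centred because the difference in log2 medians between the columns, -0.11, passed a limit of 0.1. No test was run. The spread between probe sets of a gene, an SD of 0.27 over 4775 genes, served to judge whether an alternative moved a value. The members, gene lists, isoform classes and limits were chosen with earlier results of these data known, the 1.5-fold limit after the values of these genes were seen. Every member was to be named, with the 3 largest differences of each partner list and any at 2-fold. Recovery of known changes was checked on simulated data. A planned comparison of isoform proteins was not run. Python 3.11.15, pandas 2.3.3, scipy 1.17.1 and statsmodels 0.14.6 were used.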

Additional observations from a re-analysis of the deposited data

How the results depend on the processing

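No paired analysis was possible because each group had 1 array, and for the same reason no replicate could be left out. Ratios were recomputed with quantile normalization, without centring, with a loess curve of span 0.3, with a lower floor (30th percentile) or a higher one (65th), with an offset added, with all probe sets of a gene averaged, and without those that can share sequence. Of 229 member log2 ratios under these alternatives, 220 stayed within the spread between probe sets of a gene and 9 moved further. No gene past 1.5-fold as reported changed sign. Part of the first count was set in advance, since leaving out the centring moves each ratio by 0.06, within that spread of 0.27. A gene with a single probe set also keeps that probe set under the averaging. Atp6v1e1, within 1.5-fold as reported at -0.26, was at 0.72 without probe sets that can share sequence and at 0.10 with the mean over probe sets. The mean took in probe sets under the floor on both arrays, raised to it, which shrinks large differences. This held for Atp6v1e1, Slc9a5, Slc4a3 and Atp6v0a1, and it also enters the counts under that alternative. With the lower floor 1 member, the pump gene Atp6v1b1 at -1.27, was at least 2-fold lower, and the Slc9a median was -0.11. The cause is in the construction of that alternative, which lets values below the main floor count. For all genes, 646 were at least 2-fold higher and 142 lower. The first count became 419 under the higher floor, and the second 345 under the lower floor, 68 under the higher one, 31 with the offset and 78 with the mean over probe sets. The number of members at least 1.5-fold lower, 3 as reported, was 5 without centring, 6 with the lower floor and 1 with the offset or the mean over probe sets. The number at least 1.5-fold higher, 1 as reported, was 2 when shared-sequence probe sets were dropped and 0 with the higher floor, the offset or averaged probe sets. Signal near the floor limits the Slc9a genes, Slc4a1, Slc4a3, Slc4a11, Atp6v1b1 and Atp6v1g2.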
